A study of Mus musculus with 11 samples.

Results

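The laminin chain genes, the integrin subunit genes and 5 genes whose products link them (Nid1, Nid2, Npnt, Agrn and Hspg2) were examined for open chromatin in fetal mouse lung epithelium with and without the regulators Prdm16 and Prdm3. Members were matched by gene symbol, and the family was chosen with earlier results of these data known. A region belonged to a gene when that gene's body was the nearest protein-coding one and lay at most 100 kb away. Of 83262 regions tested across the genome, 289 met this rule. They fell to 38 of the 42 genes matched by symbol. Itgad, Itgal, Itgam and Itgax, subunits of leukocyte integrins, had no tested region.

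Laminins are trimers of an alpha, a beta and a gamma chain that form the sheet of the basement membrane under an epithelium. Nidogens, perlecan and agrin join that sheet to collagen IV and to the cell surface, and integrins, each a pair of an alpha and a beta subunit, grip it from the cell side. In lung, α6β4 and α3β1 hold epithelial cells to laminin, α8β1 binds nephronectin, and αvβ6 and αvβ8 activate latent TGF-β.

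ATAC-seq, in which a transposase cuts and tags open DNA, was run on lung epithelial cells taken from mouse fetuses at E17.5 with EpCAM microbeads. There were 6 control libraries and 5 libraries labelled Prdm3/16KO. In the knockouts the floxed alleles of Prdm16 and Prdm3 (Mecom) were deleted by Shh-Cre, a Cre transgene under the control of sonic hedgehog, which is expressed by the early lung epithelium. The crosses joined Shh-Cre+ Prdm3fl/fl Prdm16fl/wt males with Prdm3fl/fl Prdm16fl/fl females, so a littermate without Cre would still carry floxed alleles. The labels call the other group Control and give no genotype for it. They do not say that each library came from its own fetus, so the p-values below measure the spread between these libraries, which may be technical. Whether the floxed exons were gone was not checked here. Each library is a bulk sample, so fewer cells with an open region and a weaker opening in each cell cannot be told apart.

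The deposited peak lists held 79525 to 112297 peaks in controls and 72935 to 85704 in knockouts. Every list was therefore cut to its 72935 strongest peaks, the length of the shortest. Each peak was then given a rank score, in which the strongest peak of a library is near 1, the weakest is near 0, and 0 stands for no peak in the cut list. A score of 0 therefore does not show closed chromatin. As a check on the cells, all 8 epithelial marker genes, among them Epcam, Cdh1 and Nkx2-1, had a region within 1 kb of a gene end with a peak in all 11 libraries. Regions of the mesenchymal markers had a summed score of 6.65 to 7.87 in controls and 4.94 to 6.16 in knockouts, so the groups did not overlap. Singly, 3 of these 23 regions were called lower and 1 higher, 13.0% and 4.35%, against 20.8% and 17.0% of all regions. Markers of other cell types also had peaks at gene ends in all 11 libraries: the mesenchymal Col1a1 (0.392 in controls, 0.366 in knockouts) and Col1a2 (0.668 and 0.636), the endothelial Kdr (0.452 and 0.467) and the leukocyte Spi1 (0.692 and 0.747). Pdgfrb had one in 9 libraries, Coro1a in 7, Tek in 6 and Cd68 in 5. No region lay at a gene end of Pdgfra, Tbx4 and Tcf21 (mesenchyme), Pecam1, Cdh5, Tie1 and Emcn (endothelium) or Ptprc, Csf1r and Lyz2 (leukocytes). Epithelial sums were 34.8 to 40.1 in controls and 34.4 to 38.6 in knockouts. Endothelial sums were 5.95 to 6.93 in controls and 5.90 to 7.41 in knockouts, and leukocyte sums were 4.04 to 5.91 and 3.87 to 4.62.

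RefSeq start sites were listed for 27 of the 42 genes (build GRCm38.p6, the same assembly as the mm10 of the files). Of 39 member regions within 1 kb of a listed start, 5 were lower and 1 was higher in the knockout. The lower windows of Itga5 were a pair that lay in 1 interval after merging, and so were those of Itga1. The genes were Itga5, Itga1, Hspg2 and Itga3. Their promoters are shown because a window within 1 kb of their listed start was called. The printed bases overlap a called window for Itga1 and Itga3. For Itga5 and Hspg2 the called windows lie downstream of the printed bases, inside the gene body. Lamb3 and Npnt were added after values were seen, because the starts printed for them did not pass the test while regions around them fell. Each line is the 250 bases before the start, 5′ to 3′ on the gene's strand. Capitals mark matches, on either strand, to 1 of 7 short motifs searched: CAAGTG and CTCAAG (NKX2-1-type), GGAATG (TEAD-type), TGANTCA (AP-1-type), TGTTTAC (forkhead-type), GGGCGG (the GC box) and AGATAA (a site type of zinc-finger factors).
Itga5, chr15:103366792-103367041, minus strand: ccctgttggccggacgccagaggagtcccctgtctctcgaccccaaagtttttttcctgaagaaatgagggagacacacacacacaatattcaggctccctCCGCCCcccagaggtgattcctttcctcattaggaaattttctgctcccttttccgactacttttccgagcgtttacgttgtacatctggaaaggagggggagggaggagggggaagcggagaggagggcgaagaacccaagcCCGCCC
Itga1, chr13:115101965-115102214, minus strand: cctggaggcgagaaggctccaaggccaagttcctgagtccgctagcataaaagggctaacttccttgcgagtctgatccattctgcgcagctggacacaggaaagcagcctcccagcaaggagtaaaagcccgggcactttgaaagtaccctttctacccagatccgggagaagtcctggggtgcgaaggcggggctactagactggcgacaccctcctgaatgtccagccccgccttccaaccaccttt
Hspg2, chr4:137468553-137468802, plus strand: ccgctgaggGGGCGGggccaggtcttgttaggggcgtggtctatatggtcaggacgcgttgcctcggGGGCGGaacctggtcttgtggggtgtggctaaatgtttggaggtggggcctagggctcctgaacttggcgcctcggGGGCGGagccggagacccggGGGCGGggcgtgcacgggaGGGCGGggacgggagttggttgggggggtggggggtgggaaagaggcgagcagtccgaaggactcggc
Itga3, chr11:95076715-95076964, minus strand: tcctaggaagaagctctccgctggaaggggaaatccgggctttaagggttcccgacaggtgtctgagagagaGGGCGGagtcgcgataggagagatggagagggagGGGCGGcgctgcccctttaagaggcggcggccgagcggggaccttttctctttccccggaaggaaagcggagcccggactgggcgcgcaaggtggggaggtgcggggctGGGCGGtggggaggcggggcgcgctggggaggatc
Lamb3, chr1:193301744-193301993, plus strand: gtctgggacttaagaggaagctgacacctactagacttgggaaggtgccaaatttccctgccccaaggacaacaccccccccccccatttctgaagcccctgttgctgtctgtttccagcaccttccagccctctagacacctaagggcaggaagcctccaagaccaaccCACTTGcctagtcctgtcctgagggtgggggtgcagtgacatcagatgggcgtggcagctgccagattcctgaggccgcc
Npnt, chr3:132950292-132950541, minus strand: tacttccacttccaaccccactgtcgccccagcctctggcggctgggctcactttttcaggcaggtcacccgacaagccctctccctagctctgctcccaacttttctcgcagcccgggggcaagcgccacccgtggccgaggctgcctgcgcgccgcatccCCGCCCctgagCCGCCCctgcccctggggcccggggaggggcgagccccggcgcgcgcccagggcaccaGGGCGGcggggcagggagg

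The GC box was matched 2 times in the Itga5 promoter, 5 times in Hspg2, 3 times in Itga3 and 3 times in Npnt, and not in Itga1 or Lamb3. It stood in 32.7% of all 32817 listed promoters of this length. The other match was CAAGTG in Lamb3, printed as its reverse complement, a motif held by 11.6% of all promoters. The other 5 motifs were in none of the 6 windows. Of all promoters, CTCAAG was held by 13.3%, GGAATG by 12.6%, TGANTCA by 6.75%, TGTTTAC by 3.163% and AGATAA by 9.99%. No matches overlapped in these windows. GC content was 74.0% in the Npnt window, 70.0% in Hspg2, 67.6% in Itga3, 58.8% in Lamb3, 57.6% in Itga1 and 55.6% in Itga5, all above the median of 52.4% over all promoters. A match describes letters and does not show that a factor binds.

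Across the 289 member regions, 80 were lower and 51 higher in the knockout (limma, Benjamini-Hochberg adjusted p under 0.05 over all 83262 regions), and 158 did not pass. That is 45.3% called, against 37.8% of all regions. The share lower was 27.7% against a background of 20.8%, and the share higher was 17.6% against 17.0%. The median difference was -0.038 on the 0 to 1 scale for members and -0.021 for all regions. The balance of falls and rises moved with the scaling. With scores centred in each library the counts were 59 lower and 61 higher, with peaks ranked by fold enrichment they were 52 and 52, and with lists cut to their 36467 strongest peaks they were 38 and 37. Falls then made up 49.2%, 50.0% and 50.7% of the called member regions. Among all called regions falls made up 45.9%, 51.3% and 52.1% in these 3 settings, so this shift was not particular to the members. The number of member regions with a peak was 206 to 241 per control library, median 229, and 212, 213, 205, 218 and 199 in the 5 knockouts, so the groups overlapped.

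Counts by role group stand here beside 20.8% lower and 17.0% higher among all regions, and the bar chart gives them per gene. Of the 46 regions of laminin alpha chains, 15 were higher and 8 lower (32.6% and 17.4%). Lama2 alone held 9 of these rises, and 3 of its windows lay in 1 interval after merging. The 23 beta-chain regions had 10 lower and 3 higher (43.5% and 13.0%). Laminin-binding integrin subunits had 9 higher and 7 lower of 23 (39.1% and 30.4%). The RGD-binding and shared subunits had 16 lower and 4 higher of 63 (25.4% and 6.35%). Collagen-binding subunits had 10 lower and 4 higher of 29 (34.5% and 13.8%), and leukocyte and alpha 4/9 subunits 9 lower and 3 higher of 29 (31.0% and 10.3%). Linkers had 11 lower and 8 higher of 43 (25.6% and 18.6%). Differences between these groups were not tested.

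**Figure D1:**
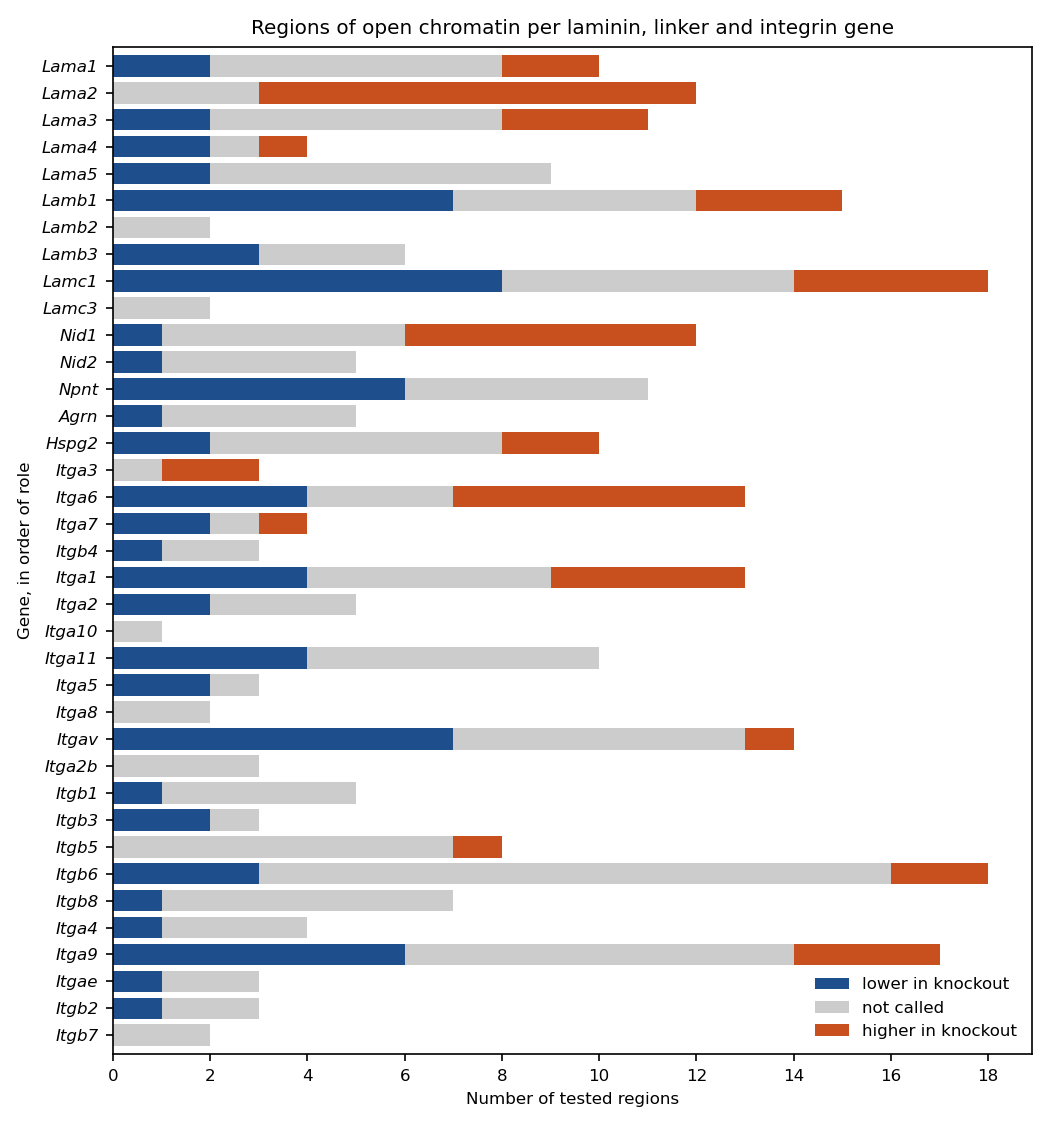
Horizontal bars count the tested regions of each gene (x axis, number of regions), split into regions lower in the knockout (blue), not called (grey) and higher in the knockout (orange), with genes in order of role. Lama2 has 9 higher and 0 lower of 12 regions, while Itgav has 7 lower and 1 higher of 14 and Npnt 6 lower and 0 higher of 11.

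A second measure was the mean rank score over all regions of a gene, tested for 16380 genes. By this measure 11 member genes were lower and 3 higher, where 28.8% of all genes passed, 2947 of them lower and 1766 higher. The genes with a higher mean were Lama2, Nid1 and Itga6. Those with a lower mean were Lamb1, Lamb3, Npnt, Itga2, Itga5, Itga11, Itgae, Itgav, Itgb3, Itgb4 and Itgb8. By regions, 15 genes had only falls, 3 only rises (Lama2, Itga3 and Itgb5), 14 both and 6 none. Such counts over all genes are not given here, so these have no background.

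**Figure D2:**
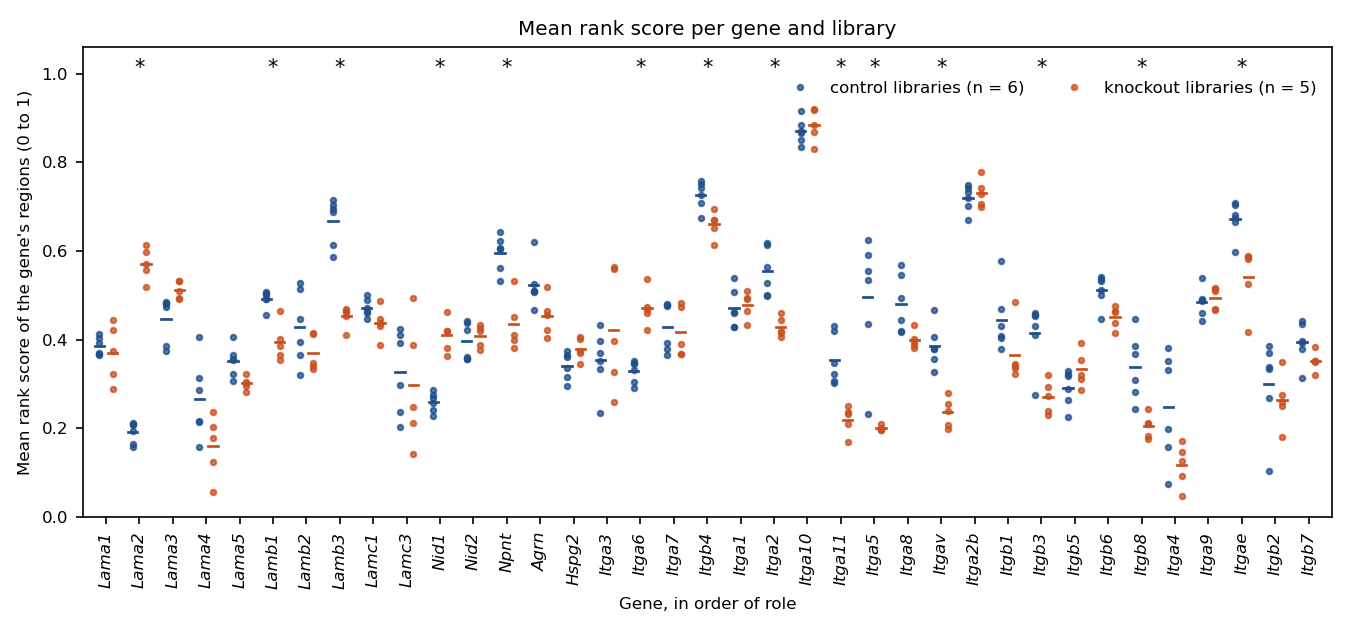
Points give the mean rank score of a gene's regions (y axis, 0 to 1) in each control (blue) and knockout (orange) library, dashes give group means, and stars mark genes whose mean passed the test. The 5 knockout libraries of Lama2 lie between 0.519 and 0.613, above all 6 controls, and the 5 of Lamb3 lie between 0.411 and 0.468, below all 6 controls.

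Lama2 encodes the alpha chain of the merosin laminins of muscle and mesenchyme, and it had the largest difference in gene mean of the member genes. Its mean score was 0.158 at the lowest, 0.201 at the median and 0.213 at the highest in controls. In the knockouts it was 0.519, 0.557, 0.570, 0.613 and 0.598. Every knockout library stood above every control. Group means were 0.191 ± 0.0242 in controls (SD, n = 6) and 0.571 ± 0.0367 in knockouts (SD, n = 5), a difference of 0.380 (SE 0.0219, limma adjusted p = 2.72e-07). Of its 12 regions, 9 were higher and none lower, and 3 to 7 had a peak per control library against 9 to 11 per knockout library. Over the same libraries the mesenchymal marker sum was lower in the knockouts (4.94 to 6.16 against 6.65 to 7.87), and its part in the Lama2 result was not tested.

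Inside the Lama2 gene body (chr10:26981285-27617191), the region chr10:27494516-27494915 had no peak in any control. Its scores in the knockouts were 0.937, 0.946, 0.924, 0.937 and 0.905, close to the top of each list (difference 0.930, SE 0.0405, limma adjusted p = 9.05e-09). The windows on both sides, starting at 27494025 and 27494981, likewise had peaks in every knockout library (0.478 to 0.714 and 0.164 to 0.517) and in no control. The 3 windows lay in 1 interval when overlapping peaks were merged, so they are 1 site rather than 3.

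A further intragenic region, chr10:27378232-27378631, had control scores of 0, 0.0781 and 0.293 (lowest, median, highest) and knockout scores of 0.863, 0.773, 0.820, 0.890 and 0.820 (limma adjusted p = 4.78e-07). The region with the best mean score of Lama2, chr10:27242004-27242403, was open in all libraries and rose from 0.743 ± 0.0574 (SD, n = 6) to 0.924 ± 0.0264 (SD, n = 5). Its limma adjusted p was 7.21e-05, and 0.072 with peaks ranked by fold enrichment. Outside the gene body, 15.9 and 46.6 kb away, the regions starting at 27632901 and 27663558 rose from 0.360 to 0.792 and from 0.350 to 0.966. No rise was called at the Lama2 start (27616526, difference 0.0471) or at the 2 regions nearest to the lower end of the gene body (27004693 and 27133147, differences -0.0697 and 0.0767).

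The other alpha chains each had changes in both directions or falls alone. Lama5, whose chain is the main alpha chain of epithelial basement membranes, had 2 regions lower and none higher of 9. Its region with the best mean score, chr2:180220160-180220559 in the gene body, scored 0.614, 0.727 and 0.755 (lowest, median, highest) in controls. In the knockouts it scored 0.746, 0.708, 0.773, 0.672 and 0.789, a range that overlapped with the controls (limma adjusted p = 0.566). Its 2 lower regions, at 180215896 in the gene body and 180234355 outside it, went from 0.468 to 0.103 and from 0.180 to 0.

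Lama3 encodes the alpha chain of laminin-332, the ligand of hemidesmosomes, and had 3 regions higher and 2 lower of 11. In its gene body the regions chr18:12391091-12391490 and chr18:12402347-12402746 had no peak in controls. Their knockout scores were 0.262 to 0.418 and 0.265 to 0.428 (limma adjusted p = 4.20e-05 and 9.16e-05). The region at 12483803 also rose from 0.00979 to 0.411. The region at the Lama3 gene end, chr18:12333738-12334137, did not pass, with means of 0.891 in controls and 0.883 in knockouts (limma adjusted p = 0.744). The window next to it, starting at 12334308, went from 0.605 to 0.0189 (limma adjusted p = 0.0174). That window shared its peak with the gene-end window in 4 libraries, and with overlapping peaks merged the difference was -0.0079 and did not pass.

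Lama1 is the alpha chain of the earliest basement membranes of the embryo, and had 2 regions lower and 2 higher of 10. In the region chr17:67779812-67780211 controls scored 0.426, 0.540 and 0.695 (lowest, median, highest) and knockouts 0, 0, 0, 0.143 and 0 (difference -0.542, limma adjusted p = 1.18e-05). No knockout reached the lowest control. The call was lost with lists cut to 36467 peaks. At 67711388 scores rose from 0.0911 to 0.583, and at the gene end, chr17:67696990-67697389, they fell from 0.972 to 0.930 (limma adjusted p = 0.00862), a call that was lost with centred scores and without limma's trend and robust options. The other higher window, at 67713796, lost its call and turned sign with overlapping peaks merged (-0.04455, limma adjusted p = 0.72). For Lama4, an alpha chain of vessel walls, 2 regions were lower and 1 was higher of 4. The higher one, chr10:38984390-38984789, scored 0.549, 0.478, 0.493, 0 and 0.639 in the knockouts and 0 to 0.299 in controls (limma adjusted p = 0.0222). It did not pass without knockout replicate 1 (difference 0.304), replicate 3 (0.318) or replicate 5 (0.281). The call was also lost at deposited list length (limma adjusted p = 0.146), with peaks ranked by fold enrichment (0.109), with −log10 q of at least 5 (0.118) and by Fisher's exact test of presence (0.644).

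Among the beta chains, Lamb3, the beta chain of laminin-332, had 3 regions lower and none higher of 6. Its gene mean was 0.586, 0.691 and 0.715 in controls (lowest, median, highest) and 0.464, 0.411, 0.454, 0.466 and 0.468 in knockouts. The groups did not overlap (difference -0.214, SE 0.0288, limma adjusted p = 2.05e-04). Just outside the gene body, chr1:193293025-193293424 scored 0.379, 0.587 and 0.783 in controls and 0, 0, 0, 0.0600 and 0 in knockouts (limma adjusted p = 4.35e-05), and did not pass with lists cut to 36467 peaks. In the gene body, the regions at 193309769 and 193319699 fell from 0.640 to 0.265 and from 0.774 to 0.616. For Lamb3 2 starts were listed, and the gene body begins at 193294353, upstream of the printed start. The window over the printed promoter and its start, chr1:193301760-193302159, scored 0.893 in controls and 0.892 in knockouts (limma adjusted p = 0.948). The region with the best mean score lies just upstream of that promoter, at chr1:193301208-193301607, with 0.943 ± 0.0172 (SD, n = 6) in controls and 0.931 ± 0.0144 (SD, n = 5) in knockouts (limma adjusted p = 0.370). At and just before the printed start, then, no difference was called, while 3 regions farther off were lower in the knockouts. The one with the largest fall lay just outside the upstream end of the gene body.

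Lamb1, the beta chain of most early laminins, had 7 regions lower and 3 higher of 15. Of the 7, 6 lay outside the gene body, between 38.8 and 81.3 kb from it. The windows at 31183603 and 31184326 lay in 1 interval after merging. The lower window in the gene body, at 31271086, lost its call with overlapping peaks merged (-0.03731, limma adjusted p = 0.267). The strongest fall, at chr12:31218841-31219240, was from 0.479, 0.586 and 0.638 (lowest, median, highest) in controls to 0, 0, 0, 0.0630 and 0 in knockouts (limma adjusted p = 1.095e-06). Here too no knockout reached the lowest control. Neighbouring regions at 31204118 and 31222950 went from 0.654 to 0.318 and from 0.657 to 0.251. The region with the best mean score, chr12:31183603-31184002, fell from 0.929 to 0.878 with a limma adjusted p of 0.0498, a call that was lost without control replicates 1, 2, 3, 4 or 6 (-0.0455 to -0.0511) or knockout replicates 1, 2 or 5 (-0.0399 to -0.0508), with centred scores (-0.031), with the replicate block (-0.0496) or with a minimum of 2 libraries, and turned to a difference of 0.013 with peaks ranked by fold enrichment. Rises were small at chr12:31294534-31294933 (0.722 to 0.802, limma adjusted p = 0.0265) and, from low scores, chr12:31232196-31232595 (0.0235 to 0.238, limma adjusted p = 0.0290). Both lost their call without single libraries: the first without control replicates 1 and 3 or knockout replicates 2 and 5 (0.0696 to 0.0740), the second without control replicates 1, 2, 4 or 6 (0.210) or knockout replicates 4 (0.162) and 5 (0.195). The first also lost it at deposited length (limma adjusted p = 0.159), with fold-enrichment ranking (0.991) and with −log10 q of at least 5 (0.154), the second with the replicate block (0.0924) and by Fisher's exact test of presence (0.124). The Lamb1 gene mean fell by 0.097 (limma adjusted p = 0.00763). Lamb2, the beta chain of mature basement membranes, had 2 regions, neither called. The better one, chr9:108478742-108479141, scored 0.663 in controls and 0.625 in knockouts.

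Lamc1, the gamma chain shared by most laminins, had 8 regions lower and 4 higher of 18. The region chr1:153299413-153299812 in its gene body scored 0.444, 0.653 and 0.766 in controls (lowest, median, highest) and 0.888, 0.899, 0.911, 0.935 and 0.877 in knockouts. All knockouts were above all controls (limma adjusted p = 3.33e-04). A rise from no control peak to 0.339 was measured at chr1:153273663-153274062, where knockout replicate 5 had no peak either. Outside the gene body the regions at 153367057 and 153378628 fell from 0.933 to 0.716 and from 0.925 to 0.792, and chr1:153350949-153351348 from 0.279 to 0 (limma adjusted p = 0.0183). Within the gene body the region with the best mean score, chr1:153321400-153321799, went from 0.962 to 0.925 (limma adjusted p = 0.00529), with the opposite sign when peaks were ranked by fold enrichment (0.0165) and with no call when scores were centred. The Lamc1 gene mean did not pass (-0.0341, limma adjusted p = 0.26).

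Lamc3, another gamma chain, had 2 regions, neither called. Its region chr2:31887034-31887433 scored 0.400 ± 0.217 (SD, n = 6) in controls and 0.349 ± 0.144 (SD, n = 5) in knockouts.

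Among the linkers, Nid1 encodes nidogen-1, which bridges laminin and collagen IV. Its gene mean was 0.227, 0.263 and 0.286 in controls (lowest, median, highest) and 0.420, 0.382, 0.420, 0.463 and 0.363 in knockouts. The groups did not overlap (difference 0.150, SE 0.0225, limma adjusted p = 4.36e-04). Of 12 regions, 6 were higher and 1 was lower. Upstream, chr13:13423300-13423699 had no peak in controls and scores of 0.689, 0.672, 0.733, 0.765 and 0.701 in knockouts (limma adjusted p = 6.39e-08). In the gene body, chr13:13471504-13471903 had no peak in controls and scores of 0.739, 0.678, 0.672, 0.615 and 0.540 in knockouts (limma adjusted p = 3.55e-07). A region 26.4 kb beyond the gene, at 13538479, was open in every library and rose from 0.551 ± 0.0452 (SD, n = 6) to 0.913 ± 0.0205 (SD, n = 5). The lower region, at 13549959, went from 0.256 to 0. The related Nid2 had 1 gene-end region lower of 5 (0.848 to 0.732).

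Npnt encodes nephronectin, a basement membrane ligand of α8β1. Of its 11 regions 6 were lower and none higher. The gene mean was 0.531, 0.606 and 0.643 in controls (lowest, median, highest) and 0.452, 0.411, 0.400, 0.532 and 0.382 in knockouts. Knockout replicate 4, at 0.532, lay just above the lowest control, so the groups overlapped by that library (difference -0.160, SE 0.0316, limma adjusted p = 0.00279). The region chr3:132880790-132881189, at the far end of the gene, scored 0.188, 0.334 and 0.451 in controls and 0, 0, 0, 0 and 0.203 in knockouts (limma adjusted p = 0.00357). It did not pass when peaks were ranked by fold enrichment. Falls were also called at 132871328 (0.792 to 0.615), 132876915 (0.377 to 0.105) and 132940551 (0.879 to 0.793), and at 132864507 and 132916128, where no knockout had a peak. Over the printed Npnt promoter the region chr3:132950104-132950503 scored 0.898 in controls and 0.903 in knockouts (limma adjusted p = 0.835).

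Hspg2, which encodes perlecan, had 2 regions higher and 2 lower of 10. In its gene body chr4:137511752-137512151 had no peak in controls and scores of 0.737, 0.737, 0.658, 0.618 and 0.744 in knockouts (limma adjusted p = 1.11e-07). Nearby, chr4:137506698-137507097 went the other way, from 0.464, 0.605 and 0.673 (lowest, median, highest) to 0.0869, 0, 0.194, 0 and 0.331 (limma adjusted p = 9.98e-05). Neither pair of groups overlapped. Near the start, the region at 137469569 fell from 0.584 to 0.317 (limma adjusted p = 0.00245), while the 2 windows nearer to the printed promoter did not pass. Agrn, the gene of agrin, had 1 region lower of 5, from 0.587 to 0.359.

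**Figure D3:**
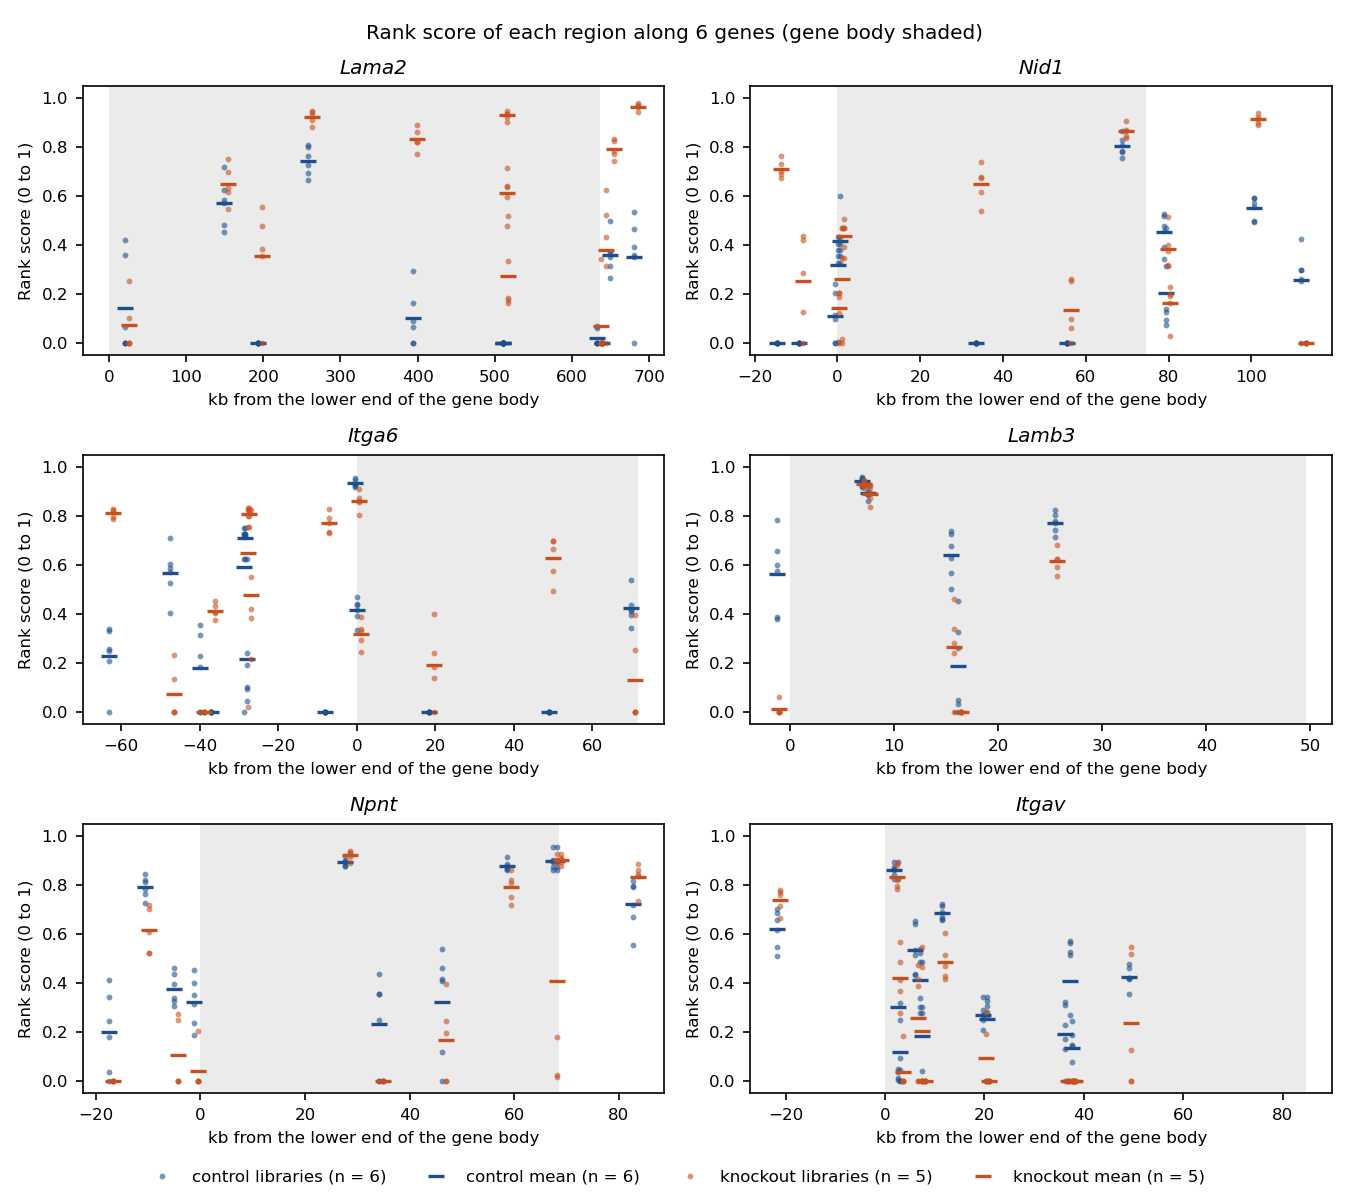
Each panel plots the rank score of every region (y axis, 0 to 1) against its distance from the lower end of the gene body (x axis, kb, body shaded), with points for libraries, dashes for group means and the 2 groups set slightly apart. Lama2 and Nid1 show several regions with orange points above blue ones within and beside the gene, Lamb3 and Npnt several regions with blue above orange, and Itga6 and Itgav hold regions at 0 in 1 group.

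Of the 23 regions of laminin-binding integrin subunits, 16 were called, 69.6% against 37.8% of all regions, a difference that was not tested. Itga6 encodes the alpha subunit of α6β4 and α6β1, receptors of hemidesmosomes and of epithelial progenitors. Its gene mean was 0.292, 0.338 and 0.352 in controls (lowest, median, highest) and 0.473, 0.460, 0.467, 0.537 and 0.422 in knockouts, with no overlap (difference 0.143, SE 0.0230, limma adjusted p = 6.92e-04). With the lists at their deposited length the difference was 0.0757 and did not pass (limma adjusted p = 0.113). Of 13 regions, 6 were higher and 4 lower.

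The Itga6 region chr2:71779133-71779532, 7.55 kb outside the gene body, had no peak in controls and scores of 0.729, 0.774, 0.791, 0.736 and 0.829 in knockouts (limma adjusted p = 3.55e-08). In the gene body chr2:71836200-71836599 had no peak in controls and scores of 0.667, 0.496, 0.698, 0.698 and 0.578 in knockouts (limma adjusted p = 7.21e-07). Farther out, chr2:71750127-71750526 had no peak in controls and 0.374 to 0.452 in knockouts. These 3 regions had a peak in every knockout library and in no control. At 62.6 kb, the region at 71724111 rose from 0.230 to 0.811. Falls stood among the rises: chr2:71739543-71739942 scored 0.404, 0.581 and 0.709 in controls (lowest, median, highest) and 0, 0.135, 0, 0.233 and 0 in knockouts (limma adjusted p = 5.23e-05). In the gene body chr2:71857001-71857400 went from 0.425 to 0.130. At the gene end chr2:71786792-71787191 went from 0.935 ± 0.0155 (SD, n = 6) to 0.862 ± 0.0390 (SD, n = 5) (limma adjusted p = 0.00264).

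Itga3, the alpha subunit of the laminin receptor α3β1, had 2 regions higher and none lower of 3. Over its printed promoter chr11:95076745-95077144 scored 0.496, 0.562 and 0.649 in controls (lowest, median, highest) and 0.763, 0.696, 0.650, 0.685 and 0.773 in knockouts. The groups were adjacent without overlap (difference 0.148, SE 0.0384, limma adjusted p = 0.00797), and with the lists at their deposited length the difference was 0.068 (limma adjusted p = 0.156), as with −log10 q of at least 5 (0.0752, limma adjusted p = 0.147). Itgb4, the beta subunit of α6β4, had 1 region lower of 3, at 115974223 just outside the gene body (0.566 to 0.328, limma adjusted p = 0.00338). With overlapping peaks merged that call was lost and the sign turned (0.048, limma adjusted p = 0.123). Its best region, chr11:116004946-116005345, scored 0.837 in controls and 0.828 in knockouts and did not pass. The Itgb4 gene mean fell by 0.0660 with a limma adjusted p of 0.0431, which was lost without any 1 of 9 of the 11 libraries (control replicates 1, 2, 3, 5 and 6 and knockout replicates 1, 2, 3 and 4; -0.0542 to -0.0698). Itga7, a laminin receptor of muscle, had 2 regions lower and 1 higher of 4, the higher one at 128956184 in the gene body (0.335 to 0.710).

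Of the collagen receptors, Itga1 (α1β1) had 4 regions higher and 4 lower of 13, arranged by position. All 4 rises lay in the gene body between 47.4 and 64.4 kb from its lower end. At chr13:115021394-115021793 controls scored 0, 0.278 and 0.537 (lowest, median, highest) and knockouts 0.788, 0.858, 0.784, 0.843 and 0.906 (limma adjusted p = 5.65e-05). At chr13:115005316-115005715 scores rose from 0.372 to 0.849 (limma adjusted p = 3.96e-04), without a call when peaks were ranked by fold enrichment. Between them, at 115014063, they rose from 0.483 to 0.875. The falls were at the start and beyond it. Over the printed Itga1 promoter the window at 115101818 went from 0.776 to 0.619 (limma adjusted p = 0.00465), and its neighbour at 115101178, which took the same peak in several libraries, from 0.787 to 0.396. Upstream of the start, 61.3 kb from the gene body, chr13:115163086-115163485 had a peak in all 6 controls (0.303, 0.408 and 0.593 as lowest, median and highest) and in no knockout (limma adjusted p = 5.44e-05).

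Itga2, the alpha subunit of the collagen receptor α2β1, had 2 regions lower and none higher of 5. Its gene mean went from 0.554 ± 0.0537 (SD, n = 6) to 0.429 ± 0.0222 (SD, n = 5) (limma adjusted p = 0.0056). The best region, at the Itga2 start (chr13:114931945-114932344), scored 0.690 in controls and 0.708 in knockouts (limma adjusted p = 0.763), and the sign of this difference was not stable over the alternatives. Itga11, a collagen receptor of mesenchyme, had 4 regions lower and none higher of 10. In chr9:62744872-62745271 controls scored 0.656, 0.697 and 0.830 (lowest, median, highest) and knockouts 0.403, 0.469, 0.364, 0.297 and 0 (limma adjusted p = 5.63e-04). The mesenchymal marker sum was lower in the same libraries (4.94 to 6.16 in knockouts, 6.65 to 7.87 in controls), and its part in the Itga11 result was not tested. Itga10 had 1 region, not called.

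The RGD-binding and shared subunits had a peak in 49 to 58 of their 63 regions per control library and in 37, 39, 36, 40 and 40 in the knockouts. Those counts did not overlap between groups, while the counts over all members did (206 to 241 and 199 to 218). For laminin alpha chains the counts went the other way, with 27 to 32 in controls and 32 to 36 in knockouts. Those of laminin-binding subunits were 16 to 18 and 17 to 20, and those of linkers 29 to 37 and 32 to 35. The remaining role groups had lower mean counts in the knockouts and ranges that overlapped. No such count over all regions is given here. Of the 63 regions, 31.75% were called and 11.1% had groups without overlap, against 37.8% and 22.9% of all regions. Mesenchymal marker sums were lower in the same knockouts, and their part was not tested. Itgav, the αv subunit, had 7 regions lower and 1 higher of 14. Its gene mean was 0.326, 0.380 and 0.467 in controls (lowest, median, highest) and 0.199, 0.280, 0.208, 0.239 and 0.255 in knockouts, with no overlap (difference -0.149, SE 0.0273, limma adjusted p = 0.00169). Per library, 11 to 14 Itgav regions had a peak in controls and 5 to 7 in knockouts. All 7 lower regions lay in the gene body, and 4 of them, starting at 83742825, 83758665, 83759616 and 83760048, had a peak in 5 controls and no knockout. The windows at 83759616 and 83760048 lay in 1 interval after merging. The start region chr2:83724212-83724611 did not pass (0.862 in controls, 0.835 in knockouts, limma adjusted p = 0.324).

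The αv partners behaved unlike one another in their calls. Itgb6, the epithelial partner that activates TGF-β, had 3 regions lower and 2 higher of 18, and 11 of its regions had a peak in all libraries. In its gene body chr2:60637286-60637685 scored 0.379, 0.530 and 0.621 in controls (lowest, median, highest) and 0.953, 0.956, 0.956, 0.952 and 0.962 in knockouts. The 5 knockouts had an SD of 0.00389 and all lay above every control (difference 0.435, SE 0.0346, limma adjusted p = 4.19e-07). The best region, chr2:60689028-60689427, scored 0.954 and 0.965 and did not pass. Itgb8 had 1 region lower of 7: chr12:119088608-119089007, 74.0 kb from the gene, scored 0.497, 0.557 and 0.599 (lowest, median, highest) in controls, and no knockout had a peak (limma adjusted p = 5.90e-07). Its gene mean went from 0.339 to 0.204 (limma adjusted p = 0.0141). Itgb5 had 1 region higher of 8, chr16:33878982-33879381, with no control peak and knockout scores of 0.211, 0.584, 0.536, 0.576 and 0.434 (limma adjusted p = 9.57e-05). That call was lost with lists cut to 36467 peaks (0.0781). Itgb3 had 2 lower of 3, and its gene mean of 0.414 in controls and 0.271 in knockouts passed (limma adjusted p = 0.00855) but not with lists at their deposited length (-0.0353, limma adjusted p = 0.571).

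Itga5, the fibronectin receptor subunit, had 2 regions lower and none higher of 3, both within 1 kb of the printed promoter. The region chr15:103365822-103366221 scored 0, 0.687 and 0.813 in controls (lowest, median, highest) and 0, 0, 0, 0 and 0.0243 in knockouts (limma adjusted p = 0.00138). This window shared its peak with the neighbour at 103366378 in 5 libraries. With overlapping peaks merged the difference was -0.110 (limma adjusted p = 0.0105), and with lists at their deposited length -0.0730 (limma adjusted p = 0.0818). It did not pass with −log10 q of at least 5 (limma adjusted p = 0.448) or by Fisher's exact test of presence (adjusted p = 0.124). The neighbour itself scored 0.653 to 0.813 in controls and 0.566 to 0.627 in knockouts. The Itga5 gene mean, 0.495 in controls and 0.2003 in knockouts, likewise passed in the cut lists (limma adjusted p = 0.00293) and not at deposited length (-0.139, limma adjusted p = 0.0803). Itgb1, the partner of most alpha subunits, had 1 region lower of 5, 76.6 kb from the gene. At its start chr8:128685412-128685811 scored 0.938 in controls and 0.952 in knockouts and did not pass (limma adjusted p = 0.315). Itga8 and Itga2b had no called region.

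Among the leukocyte and alpha 4/9 subunits, Itga9, which pairs with β1 and binds tenascin, had 6 regions lower and 3 higher of 17. In its gene body chr9:118885792-118886191 had no peak in controls and scores of 0.535, 0.551, 0.577, 0.609 and 0.702 in knockouts (limma adjusted p = 6.20e-07). At chr9:118705644-118706043 no control and every knockout had a peak (0.127 to 0.471). The region chr9:118824835-118825234 rose from 0.324 to 0.646 (limma adjusted p = 0.00537; 0.0676 with peaks ranked by fold enrichment). At chr9:118762712-118763111 scores fell from 0.396 to 0.0315 (limma adjusted p = 0.00557), while Fisher's exact test of presence did not pass (adjusted p = 0.124). Itgae, the αE subunit that binds E-cadherin, had a fall in chr11:73144279-73144678 from 0.828, 0.867 and 0.884 in controls (lowest, median, highest) to 0.484, 0.397, 0.366, 0.398 and 0.443 in knockouts. These groups did not overlap (difference -0.444, SE 0.0282, limma adjusted p = 6.21e-08). Itgb2, the leukocyte beta subunit, had 1 region lower of 3, chr10:77560844-77561243, at 0.184, 0.335 and 0.498 in controls and with no peak in any knockout (limma adjusted p = 3.96e-04). Leukocyte marker sums were 4.04 to 5.91 in controls and 3.87 to 4.62 in knockouts; their part in the Itgae and Itgb2 values was not tested. Itga4 had 1 lower of 4 regions, and Itgb7 had none called of 2.

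All-or-none regions can be read directly from the lists. Peaks in every knockout library and no control were found in 14 member regions, 4.84% of members against 3.89% of all regions, and they lay in 12 intervals after merging. Lama2 and Itga6 had 3 each, Lama3, Nid1 and Itga9 had 2 each, and Hspg2 and Itgb5 had 1 each. The reverse pattern was found in 3 member regions, 1.04% against 2.94%: those of Itga1, Itgb2 and Itgb8. Groups that did not overlap were found in 70 member regions, 24.2% against 22.9%.

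**Figure D4:**
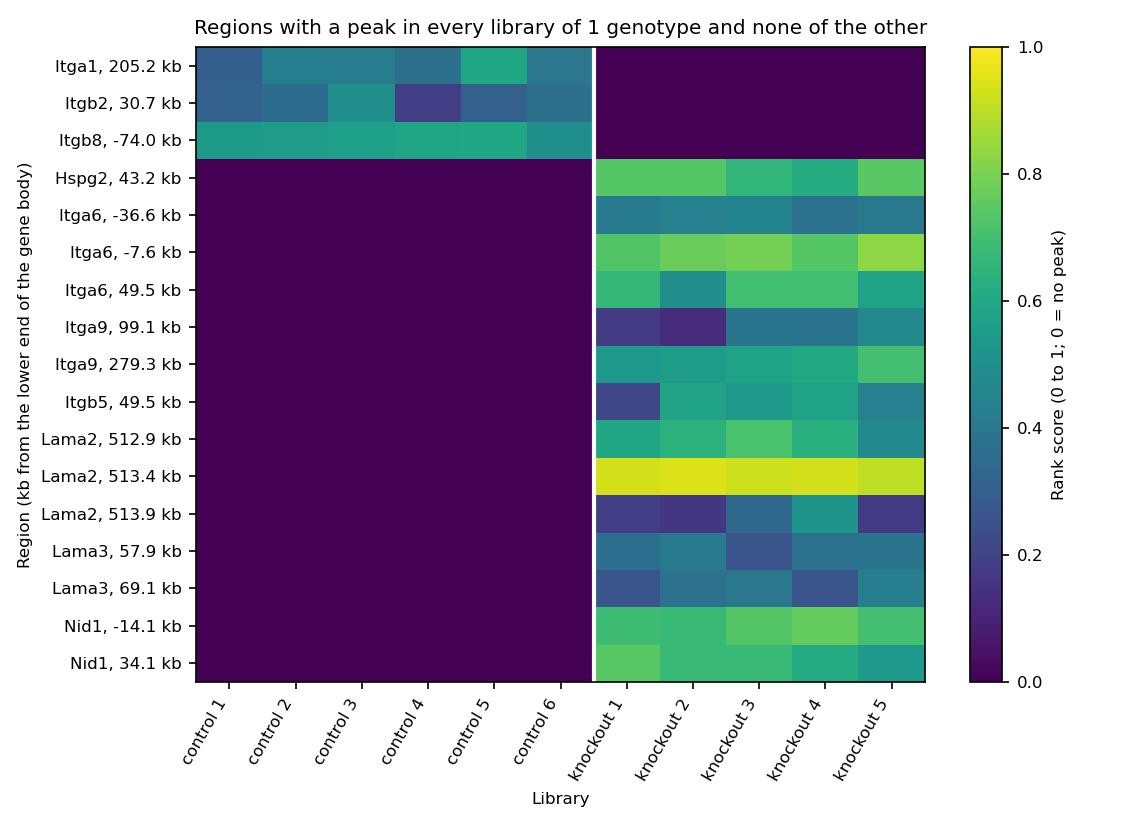
Each row is a member region with a peak in every library of 1 genotype and none of the other, named by gene and distance from the lower end of the gene body, and each column is a library. Colour gives the rank score (0 to 1, dark is no peak), and the 3 regions present only in the controls stand above the 14 present only in the knockouts, where the Lama2 region at 513.4 kb is the brightest.

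Position within the gene went with how often a region was called. At gene ends (within 1 kb of an end of the gene body or of a listed start), 13 of 59 member regions were lower and 2 higher, 22.0% and 3.39%, against 9.70% and 6.66% of all gene-end regions. These are windows rather than sites. The 2 lower windows of Itga1 lay in 1 interval after merging, as did the 2 of Itga5. The Itgb4 window at 115974223 and the Lamc1 window at 153333276 lost their call with overlapping peaks merged (0.048 and 0.045, limma adjusted p = 0.123 and 0.444). Of the 159 member regions inside gene bodies, 42 fell and 37 rose, 26.4% and 23.3%, against 26.1% and 20.1% of all such regions. Of the 71 outside them, 25 fell and 12 rose, 35.2% and 16.9%, against 23.0% and 19.5%. Of 39 regions at listed starts, 6 were called, both windows of Itga1 and of Itga5 among them, while 15.0% of all 16804 start regions were. Among the 128 member regions with a peak in all 11 libraries, 32 were lower and 17 higher, 25.0% and 13.3%, against 17.9% and 12.7% of all such regions. At the 100 kb limit, the farthest member region was 83.2 kb from Itgb8 (0.0736 in controls, 0 in knockouts), and the nearest region beyond it was 124 kb from Itga4 (0.432 and 0.120); neither was called.

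Counted in the lists themselves, the share of peaks at member genes did not differ beyond the spread between libraries. With equal list lengths, 0.338% ± 0.00697 (SD, n = 6) of control peaks and 0.341% ± 0.00726 (SD, n = 5) of knockout peaks lay at member genes (exact permutation test, 2-sided, p = 0.446). At the deposited lengths the members held 272 to 366 peaks per control list and 250 to 290 per knockout list, 0.333% and 0.340% of all peaks (exact permutation test, 2-sided, p = 0.312).

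Partners outside the family were taken from a list of 26 adaptors, hemidesmosome proteins and basement membrane genes, of which 25 had a region. Of their 300 regions 70 were lower and 49 higher, 39.7% called against 37.8% of all regions. By gene mean, Col17a1, the hemidesmosome collagen, rose by 0.237 (limma adjusted p = 5.35e-04), and so did Cd151, the tetraspanin partner of laminin-binding integrins, by 0.115 (limma adjusted p = 0.0348). Fras1, a basement membrane protein of epithelia, fell by 0.106 (limma adjusted p = 9.46e-04), Parva, an actin-linking adaptor, by 0.0920 (limma adjusted p = 0.0117), and Col4a1, a chain of collagen IV, by 0.138 (limma adjusted p = 0.00211). Within Fras1 the direction was mixed: 8 of 23 regions were lower and 3 higher, and the region at chr5:96622482-96622881 went from no control peak to 0.903. For Col4a1, chr8:11225534-11225933 went from 0.887 ± 0.0536 (SD, n = 6) to 0.253 ± 0.0616 (SD, n = 5).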

How the data were processed

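Accessibility was measured by ATAC-seq in 6 control and 5 knockout libraries of EpCAM-selected fetal lung epithelial cells (50000 cells captured, Tagment DNA TDE1 enzyme, per the labels' protocols). Library groups come from the labels. The submitters' processing notes list the build mm10 and the tools DiffBind 3, MACS2 and deepTools, and do not say what each did; which aligner, filters and peak-calling options were used is not stated in the sources used here. Each deposited list gives, per peak, an interval and summit, a display score (not used), a fold enrichment ratio over background, and the −log10 p and −log10 q of the peak caller, all made by the authors. Read counts were not analysed here, so the depth behind each peak is unknown; only list lengths are known, and no interval for counting error can be given.

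Lists were cut to the 72935 peaks with the highest deposited −log10 p, since longer lists hold weaker peaks. Windows of 400 bp on the summits, best rank kept, formed the regions; a library had a peak where at least 100 bp overlapped, and a region was tested when 3 or more of the 11 libraries had one. Cutting and ranking remove differences in total signal between libraries, so scores are relative within a library. Regions were assigned to the nearest of 21887 RefSeq protein-coding gene bodies, ties kept (2 member regions tied with another gene). Scores were tested with limma 3.58.1 (trend and robust options, genotype only, R 4.3.3) and Benjamini-Hochberg adjustment over all regions; gene means were tested over all genes with a region. The steps were tested on simulated data. Overlaps were made with bedtools 2.31.1, tables and exact permutation tests with Python 3.11.15, pandas 2.3.3 and scipy 1.17.1.

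Members and lists were chosen with earlier results of these data known. Regions named with values are the 2 strongest falls and 2 strongest rises of each role group, every region with peaks in all libraries of 1 genotype and none of the other, and the region with the best mean score of each laminin chain gene and of Itga2, Itga3, Itga6, Itgav, Itgb1, Itgb4 and Itgb6. A single member gene is counted in the totals but not reported here. Other regions given by start were chosen after their values were seen. Alternatives covered list length, ranking, overlap, the library minimum, merging, centring, the limma options, the replicate block, leaving out each library and Fisher's exact test of presence. Replicate numbers shared between the groups had no stated meaning. The correlations of deviations from group means between same-numbered libraries were 0.0517, -0.000479, -0.0234, 0.00415 and 0.139, so the libraries were not treated as pairs.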

Additional observations from a re-analysis of the deposited data

Results flagged for a closer look

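Named regions and called gene means were searched for single libraries that stood apart from the rest of their group by the gap to the nearest library over the group's range (Dixon's 95% critical value). Of 123 groups tested, 17 libraries were marked, and about 1 in 20 would be by chance. In 4 groups a control library had the lowest score by a gap: 0 for control replicate 5 in the Itga5 region at 103365822 (others 0.653 to 0.813), 0 for control replicate 4 in the Itga9 region at 118762712 (others 0.376 to 0.511), 0.778 for control replicate 4 in the Itgb4 region at 116004946 (others 0.837 to 0.860), and 0.614 for control replicate 3 in the Lama5 region at 180220160 (others 0.713 to 0.755). In another, control replicate 5 was at 0.874 in the Lamb1 region at 31183603 (others 0.927 to 0.955).

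Where most of a group had no peak, 1 library with a peak was marked. Knockout replicate 5 was at 0.0243 in the Itga5 region at 103365822, 0.0946 in the Lama3 region at 12334308 and 0.203 in the Npnt region at 132880790. Knockout replicate 4 was at 0.143 in the Lama1 region at 67779812, 0.063 in the Lamb1 region at 31218841 and 0.06 in the Lamb3 region at 193293025. Knockout replicate 3 was at 0.157 in the Itga9 region at 118762712. Control replicate 3 was at 0.141 in the Lamb1 region at 31232196. In all 8 of these groups the other libraries were at 0.

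Knockout replicate 4 was at 0 in the Lama4 region at 38984390, where the other knockouts scored 0.478 to 0.639. Among gene means, control replicate 5 was low for Itgb3 (0.275, others 0.410 to 0.460), control replicate 4 for Lamb1 (0.456, others 0.491 to 0.508) and knockout replicate 2 for Lamb3 (0.411, others 0.454 to 0.468).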

How the results depend on the processing

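Of the 80 lower and 51 higher member regions, the lower count was 38 with lists cut to 36467 peaks, 52 with peaks ranked by fold enrichment and 65 to 73 without any 1 library; the higher count was 46 to 51 without any 1 library. Fisher's exact test of presence, possible in 89 regions, called 23 lower and 22 higher. Falls were 51.1% of these calls, against 50.6% of the calls over all regions, of which this test called 47.2% where possible. At deposited length the counts were 97 and 47, and with −log10 q of at least 5 they were 95 and 45. Falls were 67.4% and 67.9% of these member calls, against 67.4% and 67.0% of the calls over all regions. Genes with a called mean, 11 lower and 3 higher, numbered 5 higher with centred scores and 8 higher with overlapping peaks merged, and 10 to 12 lower and 3 higher without any 1 library. With the replicate block, 66 regions were lower and 47 higher, and 7 gene means were lower and 3 higher; Itgae, Itgb3, Itgb4 and Lamb1 lost their call. Only 2 of the 5 knockouts correlated best with the control of their own number. The causes were not tested.

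Of 47 named regions that passed, 29 kept direction and call in every alternative run, as did 8 of 14 called gene means. Signs turned, mostly where the difference was near 0. The Itga2 region at 114931945 was at -0.02053 at deposited length and -0.02148 with −log10 q of at least 5, and the Lama5 region at 180220160 at -0.0101 and -0.009287 under the first pair. Ranked by fold enrichment, the Itgav region at 83724212 was at 0.03512, the Lama3 region at 12333738 at 0.07697, the Lamb1 region at 31183603 at 0.01317, the Lamb3 region at 193301208 at 0.04667 and the Lamc1 region at 153321400 at 0.01652. With centred scores, the Itgb4 region at 116004946 was at 0.01095, the Lama3 region at 12333738 at 0.01182 and the Lamb3 region at 193301208 at 0.007743. Leaving out 1 library at a time, the difference ranged from -0.00722 to 0.03753 for the Itga2 region at 114931945, -0.02046 to 0.006144 for the Itgb4 region at 116004946, -0.0206 to 0.001475 for the Lama3 region at 12333738 and -0.1311 to 0.000666 for the Lamc3 region at 31887034; signs turned without control replicate 3, knockout replicate 2, control replicate 5 and knockout replicate 4. The Itgb4 gene mean was at 0.01964 with overlapping peaks merged. Depth is not known, so absent peaks may lie under the calling threshold.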
